A study of Mus musculus with 4 samples.

Results

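The axes of lymphocyte homing and survival, made of 4 ligands and their 4 receptors, were followed across cell classes of the mouse prostate. The ligands were Cxcl12, Cxcl13, Ccl19 and Tnfsf13b, the gene of the B-cell survival factor BAFF, and the receptors were Cxcr4, Cxcr5, Ccr7 and Tnfrsf13c, the gene of the BAFF receptor. The 8 genes were taken by symbol from the 30905 gene rows of the matrix. They covered 9 rows, because Ccl19 has a second identifier, ENSMUSG00000094661, which had 0 UMIs and was not used. Prostates were dissociated and profiled as single cells, with 1 library per group. The groups were Trp53-deleted ADT (5.5 months old), Trp53-deleted (3.5 months), Trp53-intact ADT (5.5 months) and Trp53-intact (4 months), where Trp53 was deleted in the prostate (marked PC in the genotype) and ADT is read as androgen deprivation therapy. The ADT libraries were the older ones, so an effect of ADT cannot be told apart from age or from the library, and genotype is tied to the library in the same way. With no replicate library there is no test between groups, and the 95% intervals given here cover counting error only. How many mice each library pools is not given in the labels.

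As background, CXCL12 made by stromal and endothelial cells retains and attracts leukocytes that carry CXCR4, and CXCL13 draws CXCR5-bearing B cells and helper T cells into follicles. CCL19 guides CCR7-bearing naive T cells, B cells and mature dendritic cells into lymphoid tissue. BAFF, made by myeloid and stromal cells, keeps mature B cells alive through the BAFF receptor. In organs without lymphoid architecture, fibroblasts can take on parts of this programme.

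The gene bodies lie, in GENCODE M21 on GRCm38, at chr6:117168535-117181367 on the plus strand for Cxcl12 (ENSMUSG00000061353) and at chr5:95956951-95961068 on the plus strand for Cxcl13 (ENSMUSG00000023078). Ccl19 (ENSMUSG00000071005) lies at chr4:42754525-42756577 on the minus strand and Tnfsf13b (ENSMUSG00000031497) at chr8:10006467-10039072 on the plus strand. Cxcr4 (ENSMUSG00000045382) lies at chr1:128588199-128592293, Cxcr5 (ENSMUSG00000047880) at chr9:44511787-44561877, Ccr7 (ENSMUSG00000037944) at chr11:99144196-99155077 and Tnfrsf13c (ENSMUSG00000068105) at chr15:82221743-82224369, all on the minus strand. The promoter windows of Cxcl13 and Cxcl12, the ligands most abundant in fibroblasts, are shown from RefSeq (GRCm38.p6, 250 bases before the start to 50 after it), since both genes are read in the same cells and their levels moved apart. Capitals mark any match, on either strand, to the TATA box core TATAAA, to the GC box GGGCGG or to the steroid receptor motif AGAACA.
Cxcl13, chr5:95956689-95956988, plus strand: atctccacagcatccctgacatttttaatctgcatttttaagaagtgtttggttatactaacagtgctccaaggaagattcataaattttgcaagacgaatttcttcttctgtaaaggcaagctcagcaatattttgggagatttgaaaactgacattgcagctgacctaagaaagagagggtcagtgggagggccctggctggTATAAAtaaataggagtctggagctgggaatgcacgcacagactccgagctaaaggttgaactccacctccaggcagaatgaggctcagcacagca
Cxcl12, chr6:117168285-117168584, plus strand: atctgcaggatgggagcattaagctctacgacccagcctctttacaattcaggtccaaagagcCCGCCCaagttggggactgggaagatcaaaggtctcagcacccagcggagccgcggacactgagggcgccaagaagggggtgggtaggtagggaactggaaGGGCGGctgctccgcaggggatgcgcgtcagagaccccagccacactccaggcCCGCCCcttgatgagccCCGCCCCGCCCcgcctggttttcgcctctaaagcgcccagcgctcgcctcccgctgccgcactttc
The Cxcl13 window held 1 TATAAA and no GGGCGG, with 44.0% G and C. Cxcl12 held 5 GGGCGG, of which 2 overlap, and no TATAAA, with 64.7% G and C. Neither held AGAACA, which says only that these letters are not in these windows. Of the 32851 mouse promoter windows in the table, 13.6% held TATAAA, 35.7% held GGGCGG and 19.0% held AGAACA.

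After filtering, 8833 cells remained in the Trp53-deleted ADT library, 5389 in Trp53-deleted, 7276 in Trp53-intact ADT and 7500 in Trp53-intact, out of libraries of 58088678 to 148030357 UMIs. The median depth per cell was 5660 UMIs in Trp53-deleted ADT, 4457 UMIs in Trp53-deleted, 4123 UMIs in Trp53-intact ADT and 5473 UMIs in Trp53-intact. Cells were grouped into 35 clusters without using the 8 genes and named "-like" from their markers, except 7 clusters that stayed unnamed. Unnamed clusters held 29.9% of the Trp53-deleted ADT cells, 1.45% of Trp53-deleted, 21.8% of Trp53-intact ADT and 2.60% of Trp53-intact. Levels are UMIs summed over a class in a library over all UMIs of that class there, on the usual CPM scale. Trp53 itself measured 19.0 CPM in luminal progenitor-like cells of Trp53-deleted ADT, 17.2 CPM in Trp53-deleted, 87.2 CPM in Trp53-intact ADT and 55.8 CPM in Trp53-intact. Of 36198 barcode sequences, 128 occurred in more than 1 library.

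Cxcl13, the B-cell attractant, was chiefly a fibroblast RNA and was lower with ADT in both genotypes. In fibroblast-like cells it measured 211 CPM in the Trp53-deleted ADT library, against 1123 CPM in Trp53-deleted. In the Trp53-intact pair it measured 381 CPM with ADT and 1626 CPM without. The differences were 5.31-fold lower with ADT in the deleted genotype (95% interval 5.03 to 5.61) and 4.27-fold lower in the intact genotype (4.13 to 4.41). Without the 1 cell that held most Cxcl13 UMIs in each library, the levels were 182 CPM in Trp53-deleted ADT, 1092 CPM in Trp53-deleted, 362 CPM in Trp53-intact ADT and 1588 CPM in Trp53-intact. Fibroblast-like cells held 46.1% of all Cxcl13 UMIs in the Trp53-deleted ADT library, 95.8% in Trp53-deleted, 81.8% in Trp53-intact ADT and 83.1% in Trp53-intact.

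The share of fibroblast-like cells with a Cxcl13 UMI followed the same order in each pair. It was 12.7% in Trp53-deleted ADT (median depth 7176 UMIs) and 45.1% in Trp53-deleted (6952.5 UMIs), then 26.4% in Trp53-intact ADT (9751 UMIs) and 37.1% in Trp53-intact (5405.5 UMIs). With every cell thinned to 1000 UMIs the shares were 6.39% in Trp53-deleted ADT, 27.1% in Trp53-deleted, 11.4% in Trp53-intact ADT and 28.1% in Trp53-intact. Neutrophil-like cells, which should lack the gene, gave thinned shares of 0.870% in Trp53-deleted ADT, 3.82% in Trp53-deleted, 0.427% in Trp53-intact ADT and 0.95% in Trp53-intact. Unthinned, these cells gave 1.46% in Trp53-deleted ADT, 8.45% in Trp53-deleted, 1.43% in Trp53-intact ADT and 3.73% in Trp53-intact, at median depths between 2608 and 3552.5 UMIs. Cxcl13 was unevenly spread, and the 10% of fibroblast-like cells richest in it held, of the class's UMIs, 98.6% in Trp53-deleted ADT, 76.4% in Trp53-deleted, 89.1% in Trp53-intact ADT and 82.3% in Trp53-intact.

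The fibroblast-like class was made of different clusters with and without ADT. Cluster 21, led by the oestrogen sulphotransferase Sult1e1, the ferritin receptor Scara5, complement C3 and Igf1, made up 3.41% of the class in Trp53-deleted ADT against 82.0% in Trp53-deleted, and 4.88% in Trp53-intact ADT against 85.6% in Trp53-intact. Cluster 8, led by Mmp3, Apod and Sfrp4, made up 60.3% in Trp53-deleted ADT against 3.72% in Trp53-deleted, and 79.7% in Trp53-intact ADT against 10.6% in Trp53-intact. Cluster 17, led by the Wnt-pathway genes Lgr5 and Wif1, held the rest. Cxcl13 itself stood among the 10 leading genes of cluster 21 although it was kept out of the clustering.

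Within cluster 21, Cxcl13 measured 75.04 CPM in the 26 Trp53-deleted ADT cells (95% interval 42.9 to 122) against 1331 CPM in 1299 Trp53-deleted cells, and 83.0 CPM in 58 Trp53-intact ADT cells (62.0 to 109) against 2059 CPM in 1065 Trp53-intact cells. The few cells of this cluster in the ADT libraries thus carried little of the RNA. Cluster 8 had 280 CPM in Trp53-deleted ADT and 442 CPM in Trp53-deleted, then 442 CPM in Trp53-intact ADT and 114 CPM in Trp53-intact. Cluster 17 had 44.5 CPM in Trp53-deleted ADT and 136 CPM in Trp53-deleted, then 74.2 CPM in Trp53-intact ADT and 10.3 CPM (4 UMIs) in Trp53-intact. Single cells weighed heavily here, with 109 of 212 UMIs in 1 cell of cluster 8 in Trp53-deleted and 140 of 248 in 1 cell of cluster 17 in Trp53-deleted. Without the top cell of each library, cluster 8 had 239 CPM in Trp53-deleted ADT, 221 CPM in Trp53-deleted, 419 CPM in Trp53-intact ADT and 69.5 CPM in Trp53-intact, so its direction in the deleted genotype turned. The same step left cluster 17 with 17.2 CPM in Trp53-deleted ADT, 59.6 CPM in Trp53-deleted, 24.4 CPM in Trp53-intact ADT and 7.84 CPM in Trp53-intact. In cluster 21 it left 21.5 CPM in Trp53-deleted ADT, 1294 CPM in Trp53-deleted, 62.4 CPM in Trp53-intact ADT and 2011 CPM in Trp53-intact, lower with ADT in both genotypes.

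**Figure D1:**
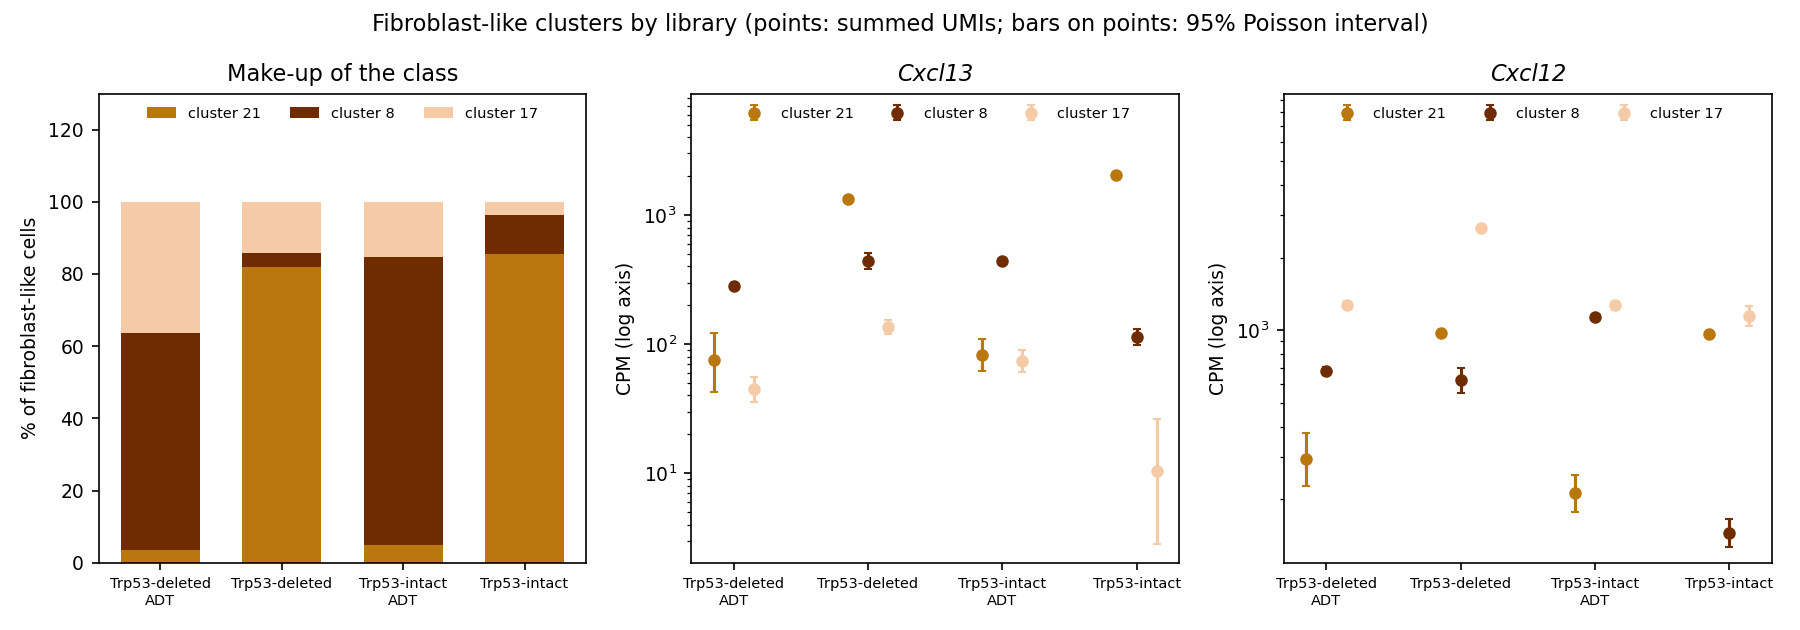
Left, the percent of fibroblast-like cells in clusters 21, 8 and 17 in each library. Middle and right, CPM of Cxcl13 and Cxcl12 in each cluster on log axes with 95% Poisson intervals, where cluster 21 filled 82.0% and 85.6% of the class in the libraries without ADT and carried 1331 and 2059 CPM of Cxcl13 there.

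Outside the stroma, Cxcl13 went the other way in the epithelium, in pairs that were added after their values were seen. In luminal progenitor-like cells it measured 177 CPM in Trp53-deleted ADT against 6.62 CPM in Trp53-deleted, and 46.4 CPM in Trp53-intact ADT against 5.19 CPM in Trp53-intact. Basal-like cells had 371 CPM in Trp53-deleted ADT (34 cells) against 42.6 CPM in Trp53-deleted (87 cells), and 47.4 CPM in Trp53-intact ADT (161 cells) against 4.36 CPM in Trp53-intact (162 cells). In neutrophil-like cells the level was 5.56 CPM in Trp53-deleted ADT, 35.7 CPM in Trp53-deleted, 4.63 CPM in Trp53-intact ADT and 13.7 CPM in Trp53-intact.

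Single epithelial cells held a large part of this Cxcl13 RNA in some libraries. In luminal progenitor-like cells 174 of 790 UMIs came from 1 cell in Trp53-deleted ADT, and without the top cell of each library the levels were 141 CPM in Trp53-deleted ADT, 4.98 CPM in Trp53-deleted, 42.8 CPM in Trp53-intact ADT and 4.49 CPM in Trp53-intact. For basal-like cells the same step gave 274 CPM in Trp53-deleted ADT, 6.67 CPM in Trp53-deleted, 32.2 CPM in Trp53-intact ADT and 3.81 CPM in Trp53-intact. Thinned to 1000 UMIs, 6.56% of luminal progenitor-like cells had a Cxcl13 UMI in Trp53-deleted ADT, 2.51% in Trp53-deleted, 3.77% in Trp53-intact ADT and 0.923% in Trp53-intact. Unthinned, the shares were 19.9% in Trp53-deleted ADT, 15.6% in Trp53-deleted, 15.5% in Trp53-intact ADT and 11.0% in Trp53-intact, at median depths of 15516.5 UMIs in Trp53-deleted ADT, 30086 UMIs in Trp53-deleted, 8717.5 UMIs in Trp53-intact ADT and 26872 UMIs in Trp53-intact. The 8 fibroblast markers summed in luminal progenitor-like cells to 278 CPM in Trp53-deleted ADT, 151 CPM in Trp53-deleted, 157 CPM in Trp53-intact ADT and 153 CPM in Trp53-intact. In basal-like cells they summed to 2864 CPM in Trp53-deleted ADT, 2273 CPM in Trp53-deleted, 1278 CPM in Trp53-intact ADT and 2555 CPM in Trp53-intact, and their part in these levels was not tested.

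Macrophage-like cells had 21.7 CPM of Cxcl13 in Trp53-deleted ADT, 31.9 CPM in Trp53-deleted, 34.9 CPM in Trp53-intact ADT and 132 CPM in Trp53-intact. The Trp53-intact library stood above the others. Trp53-intact ADT was 3.79-fold lower than Trp53-intact, and in Trp53-intact ADT 1 cell held 152 of the 197 UMIs, so that 7.98 CPM remained without it. Within the class, cluster 15 (Ccl8, Cd209f, Folr2, Cd163) carried 40.2 CPM in Trp53-intact ADT against 166 CPM in Trp53-intact. The ratio of Cxcl13 to Cxcl12 UMIs in neutrophil-like cells was 0.0673 in Trp53-deleted ADT, 1.03 in Trp53-deleted, 0.225 in Trp53-intact ADT and 1.42 in Trp53-intact. In fibroblast-like cells it was 0.256 in Trp53-deleted ADT, 0.927 in Trp53-deleted, 0.344 in Trp53-intact ADT and 1.95 in Trp53-intact, and the part of free RNA in the low levels of other classes was not tested.

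Cxcl12, the ligand of CXCR4, was abundant in fibroblast-like cells of every library and differed there by less than 2-fold. Its levels were 827 CPM in Trp53-deleted ADT (95% interval 805 to 849), 1211 CPM in Trp53-deleted (1192 to 1230), 1108 CPM in Trp53-intact ADT (1089 to 1127) and 832 CPM in Trp53-intact (814 to 851). It was lower with ADT in the deleted genotype and higher with ADT in the intact one. Cluster 17 had the highest Cxcl12 of the fibroblast clusters in each library, with 1275 CPM in Trp53-deleted ADT, 2652 CPM in Trp53-deleted, 1270 CPM in Trp53-intact ADT and 1152 CPM in Trp53-intact. Within cluster 21 it measured 295 CPM in Trp53-deleted ADT, 980 CPM in Trp53-deleted, 212 CPM in Trp53-intact ADT and 971 CPM in Trp53-intact. Within cluster 8 the intact pair differed most, with 1139 CPM in Trp53-intact ADT and 146 CPM in Trp53-intact.

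Over whole classes, the Cxcl12 ratio farthest from 1 was that of the vessels. Endothelial-like cells had 245 CPM in the Trp53-deleted ADT library, against 1141 CPM in Trp53-deleted, which is 4.66-fold lower (4.26 to 5.10). They had 602 CPM in Trp53-intact ADT and 687 CPM in Trp53-intact, a difference of 1.14-fold. With ADT the deleted genotype was 2.46-fold lower than the intact one, but 158 of the 670 UMIs in Trp53-intact ADT came from 1 cell, and without the top cells the log2 ratio was -0.98. Thinned to 1000 UMIs, 19.9% of endothelial-like cells had a Cxcl12 UMI in Trp53-deleted ADT, 55.9% in Trp53-deleted, 22.7% in Trp53-intact ADT and 32.4% in Trp53-intact. Unthinned, the shares were 39.0% in Trp53-deleted ADT, 75.4% in Trp53-deleted, 41.0% in Trp53-intact ADT and 62.0% in Trp53-intact, at median depths between 3522 and 7910 UMIs. Neutrophil-like cells gave thinned shares of 10.9% in Trp53-deleted ADT, 3.36% in Trp53-deleted, 1.88% in Trp53-intact ADT and 0.95% in Trp53-intact. Smooth muscle or pericyte-like cells had 161 CPM in Trp53-deleted ADT (60 cells), 420 CPM in Trp53-deleted (31 cells), 370 CPM in Trp53-intact ADT (66 cells) and 234 CPM in Trp53-intact (123 cells).

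In the Trp53-deleted ADT library most Cxcl12 UMIs (79.6% of 38701) lay in cells of unnamed clusters. Unnamed clusters also held 65225657 of the 125965489 UMIs of all genes in kept cells there. Cluster 34 held 29446 of the Cxcl12 UMIs at 505 CPM, a level below that of fibroblast-like cells in the library. Of its cells, 649 came from that library, at a median depth of 80985 UMIs, and 1 from Trp53-deleted. Its leading genes were Ptn, Postn, Cthrc1, Cdkn2a, Col1a1 and Col11a1, so that it is a matrix-gene cluster of 1 library to which no class was given. Fibroblast-like cells held 14.7% of the Cxcl12 UMIs there, against 89.6% in Trp53-deleted, 89.5% in Trp53-intact ADT and 79.2% in Trp53-intact.

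Ccl19, the CCR7 ligand, was scarce. Kept cells of all classes held 166 UMIs in Trp53-deleted ADT, 106 in Trp53-deleted, 170 in Trp53-intact ADT and 94 in Trp53-intact, of which fibroblast-like cells held 92.8% in Trp53-deleted ADT, 95.3% in Trp53-deleted, 83.5% in Trp53-intact ADT and 55.3% in Trp53-intact. The level in fibroblast-like cells was 22.3 CPM in Trp53-deleted ADT, against 8.11 CPM in Trp53-deleted, and 11.4 CPM in Trp53-intact ADT, against 5.77 CPM in Trp53-intact. A single cell of cluster 17 held 92 of the 154 UMIs in Trp53-deleted ADT, and without it 9.01 CPM remained, so the 2.75-fold difference rests on that cell. Smooth muscle or pericyte-like cells had 5.95 CPM in Trp53-deleted ADT (2 UMIs), 7.78 CPM in Trp53-deleted (1 UMI), 42.9 CPM in Trp53-intact ADT (16 UMIs) and 40.8 CPM in Trp53-intact (36 UMIs). Of the 16 UMIs in Trp53-intact ADT, 11 came from 1 cell, and without the top cell 13.6 CPM remained there, against 32.4 CPM in Trp53-intact. Dendritic-like cells, in which the gene was also looked for, had 0 UMIs in Trp53-deleted ADT, 0 in Trp53-deleted, 1 in Trp53-intact ADT and 1 in Trp53-intact, which left that pair unmeasured.

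BAFF RNA (Tnfsf13b) came from fibroblast-like and macrophage-like cells. In fibroblast-like cells it measured 50.1 CPM in Trp53-deleted ADT, 37.7 CPM in Trp53-deleted, 51.9 CPM in Trp53-intact ADT and 29.8 CPM in Trp53-intact, higher with ADT in both pairs by less than 2-fold. In macrophage-like cells it measured 17.6 CPM in Trp53-deleted ADT (16.1 to 19.2), 37.1 CPM in Trp53-deleted (32.1 to 42.6), 51.5 CPM in Trp53-intact ADT (45.8 to 57.8) and 36.9 CPM in Trp53-intact (34.0 to 39.9). The Trp53-deleted ADT macrophages were thus the lowest, 2.93-fold below Trp53-intact ADT (2.53 to 3.39).

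The macrophage-like class differed in its make-up, and cluster 20 (Ms4a4c, Cx3cr1, Trem2) held 2108 of the 2456 macrophage-like cells in Trp53-deleted ADT, 56 of 628 in Trp53-deleted, 186 of 369 in Trp53-intact ADT and 137 of 1391 in Trp53-intact. Within cluster 20 the Trp53-deleted ADT library was again the lowest, with 18.4 CPM in Trp53-deleted ADT, 50.7 CPM in Trp53-deleted, 59.7 CPM in Trp53-intact ADT and 63.2 CPM in Trp53-intact. Dendritic-like and neutrophil-like cells stayed between 5.31 and 8.56 CPM in all 4 libraries.

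**Figure D2:**
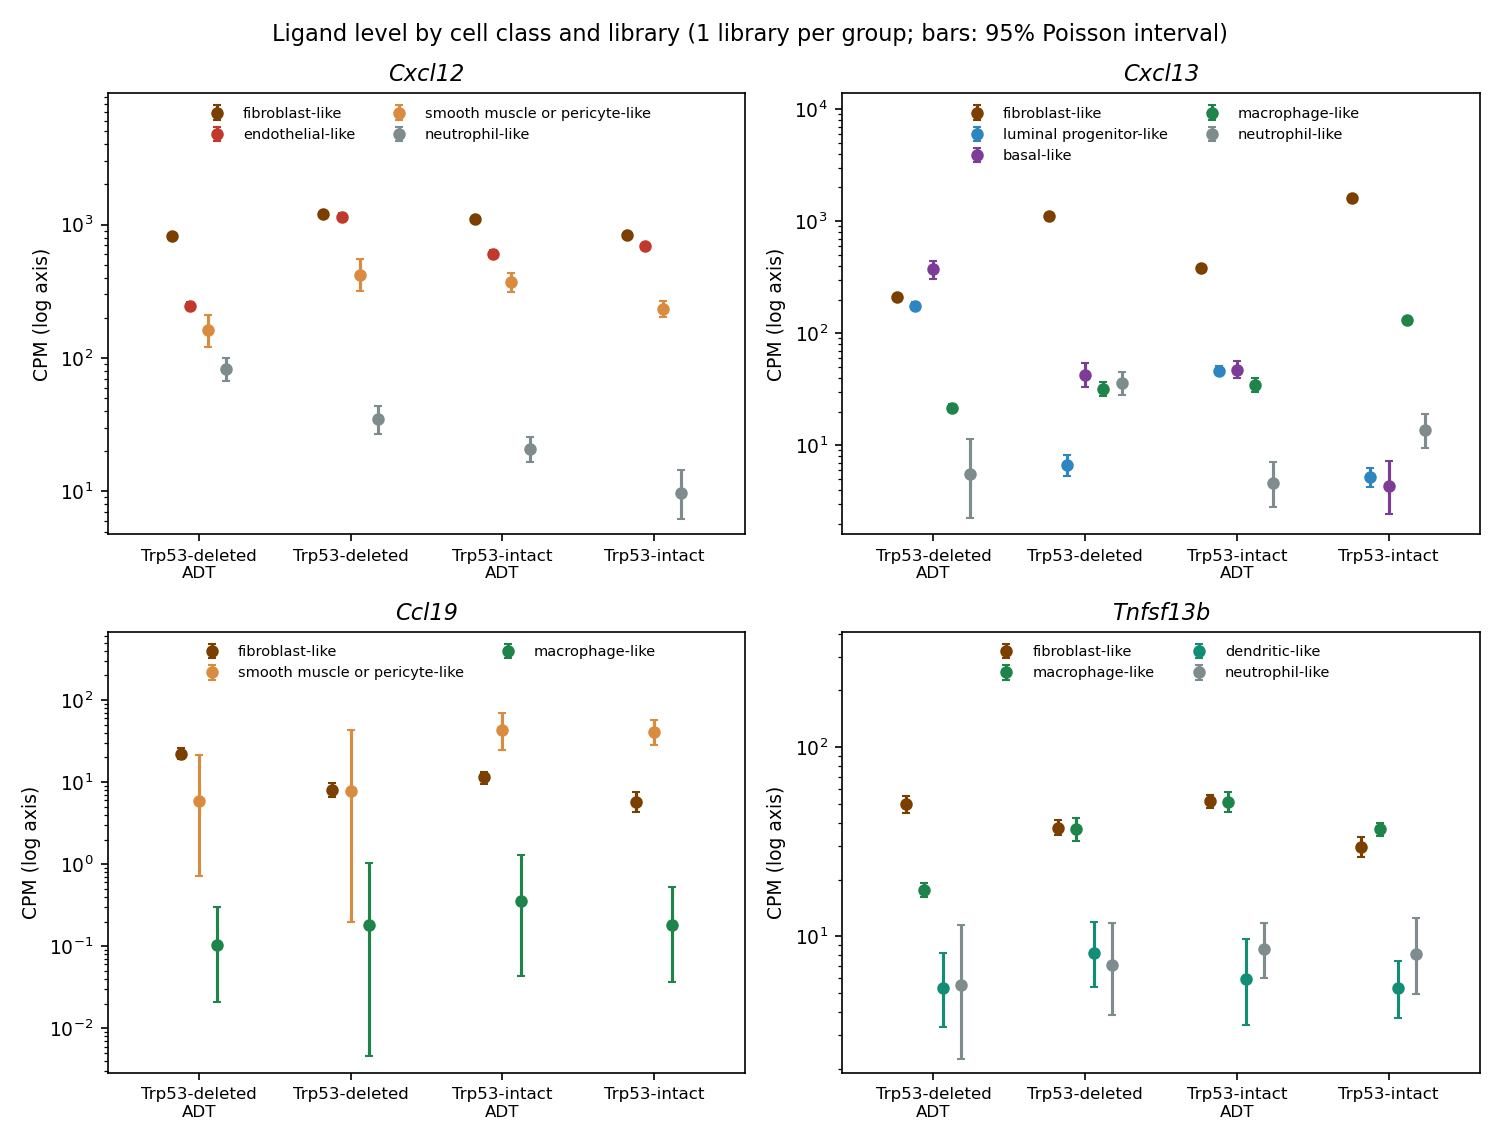
CPM of the 4 ligands on log axes in the cell classes that carry them and a comparison class, with the libraries along the horizontal axis and 95% Poisson intervals as bars. Cxcl13 of fibroblast-like cells was lower in the ADT library of each pair, while that of luminal progenitor-like and basal-like cells was higher.

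The share of B-like cells (cluster 7, led by Cd79a, Ms4a1 and Ighd), the cells that these ligands serve, moved in opposite directions with ADT in the 2 genotypes. B-like cells made up 2.16% of cells in Trp53-deleted ADT (191 cells, 95% interval 1.87 to 2.49) against 8.44% in Trp53-deleted (455 cells, 7.71 to 9.22). They made up 9.51% in Trp53-intact ADT (692 cells, 8.85 to 10.2) against 2.77% in Trp53-intact (208 cells, 2.41 to 3.17). The difference was -6.28 percentage points with ADT in the deleted genotype and 6.74 points in the intact one. With cells classed by their own marker UMIs in place of clusters, the shares were 0.374% in Trp53-deleted ADT, 5.08% in Trp53-deleted, 8.29% in Trp53-intact ADT and 1.96% in Trp53-intact. As a share of immune-like cells the values were 4.23% in Trp53-deleted ADT, 15.8% in Trp53-deleted, 20.3% in Trp53-intact ADT and 5.83% in Trp53-intact.

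Side by side with these shares, the libraries took the same order for macrophage-like Tnfsf13b, at 17.6 CPM in Trp53-deleted ADT, 37.1 CPM in Trp53-deleted, 51.5 CPM in Trp53-intact ADT and 36.9 CPM in Trp53-intact. The Trp53-deleted and Trp53-intact values had overlapping intervals (32.1 to 42.6 and 34.0 to 39.9). Over all kept cells Tnfsf13b was in the order of the shares too, at 9.30 CPM in Trp53-deleted ADT, 15.7 CPM in Trp53-deleted, 18.6 CPM in Trp53-intact ADT and 12.9 CPM in Trp53-intact. In Trp53-deleted ADT the unnamed clusters, with 3.76 CPM of Tnfsf13b, supplied 65225657 of the 125965489 UMIs in this denominator. Per 1000 kept cells the libraries lay closer, at 132.7 UMIs in Trp53-deleted ADT, 140.1 in Trp53-deleted, 145.7 in Trp53-intact ADT and 134.5 in Trp53-intact. Fibroblast-like Tnfsf13b was not in this order, at 50.1 CPM in Trp53-deleted ADT, 37.7 CPM in Trp53-deleted, 51.9 CPM in Trp53-intact ADT and 29.8 CPM in Trp53-intact. Macrophage-like cluster 20 was not either, with Trp53-intact the highest. The 2 libraries rich in B-like cells were Trp53-deleted, with 1123 CPM of fibroblast Cxcl13, and Trp53-intact ADT, with 381 CPM. These 2 libraries also had the higher fibroblast Cxcl12, at 1211 and 1108 CPM, while the B-poor Trp53-deleted ADT and Trp53-intact libraries had 827 and 832 CPM. Cxcl12 over all kept cells did not split this way. It measured 307 CPM in Trp53-deleted ADT, 350 CPM in Trp53-deleted, 270 CPM in Trp53-intact ADT and 121 CPM in Trp53-intact. Per 1000 kept cells it gave 4381 UMIs in Trp53-deleted ADT, 3122 in Trp53-deleted, 2116 in Trp53-intact ADT and 1263 in Trp53-intact. With 4 libraries no relation was tested. All 8 B markers were detected in the B-like cells of each library and summed to 5490 CPM in Trp53-deleted ADT, 7649 CPM in Trp53-deleted, 6824 CPM in Trp53-intact ADT and 5734 CPM in Trp53-intact. In the same cells the 8 macrophage markers summed to 1627 CPM in Trp53-deleted ADT, 730 CPM in Trp53-deleted, 549 CPM in Trp53-intact ADT and 827 CPM in Trp53-intact. The 8 fibroblast markers summed to 996 CPM in Trp53-deleted ADT, 380 CPM in Trp53-deleted, 203 CPM in Trp53-intact ADT and 231 CPM in Trp53-intact, and their part in the B-like values was not tested.

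B-like cells carried RNA of all 4 receptors, and the BAFF receptor was higher in the deleted genotype by less than 2-fold. Tnfrsf13c in B-like cells measured 227 CPM in Trp53-deleted ADT (195 to 262), 251 CPM in Trp53-deleted (230 to 273), 123 CPM in Trp53-intact ADT (111 to 136) and 135 CPM in Trp53-intact (116 to 156). It was 1.85-fold higher in the deleted genotype with ADT and 1.86-fold higher without, and differed by 1.11-fold and 1.10-fold between ADT and no ADT. Thinned shares of B-like cells with a UMI were 19.5% in Trp53-deleted ADT, 23.4% in Trp53-deleted, 11.3% in Trp53-intact ADT and 15.9% in Trp53-intact. Unthinned they were 44.0% in Trp53-deleted ADT, 61.1% in Trp53-deleted, 36.7% in Trp53-intact ADT and 46.6% in Trp53-intact. In T-like cells, which should lack the gene, the unthinned shares were 1.14% in Trp53-deleted ADT, 1.29% in Trp53-deleted, 0.631% in Trp53-intact ADT and 0.701% in Trp53-intact. Of all Tnfrsf13c UMIs in kept cells, B-like cells held 63.4% in Trp53-deleted ADT, 83.3% in Trp53-deleted, 73.5% in Trp53-intact ADT and 40.6% in Trp53-intact, where plasma-like cells held 32.3% and macrophage-like cells 15.5%. Of the 69 macrophage-like UMIs in Trp53-intact, 64 lay in cluster 5, as did 52 of the 54 in Trp53-intact ADT. That cluster was led by the cell-cycle genes Top2a and Mki67, with no macrophage marker among its 10 leading genes. Plasma-like cells carried 24.2 CPM in Trp53-deleted ADT (38 cells), 32.8 CPM in Trp53-deleted (34 cells), 40.3 CPM in Trp53-intact ADT (48 cells) and 29.9 CPM in Trp53-intact (156 cells).

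Cxcr5, the CXCL13 receptor that brings B cells into follicles, measured 162 CPM in Trp53-deleted ADT, 142 CPM in Trp53-deleted, 193 CPM in Trp53-intact ADT and 84.9 CPM in Trp53-intact. The last was the lowest, and Trp53-intact ADT stood 2.28-fold above it (1.86 to 2.81). With edgeR's TMM scaling that log2 ratio was 0.95, just under 2-fold. In T-like cells Cxcr5 stayed between 2.30 and 8.65 CPM, and in fibroblast-like cells at or below 0.884 CPM. Dendritic-like cluster 19 carried more, with 41.3 CPM in Trp53-deleted ADT (16 UMIs), 21.5 CPM in Trp53-deleted (8 UMIs), 13.4 CPM in Trp53-intact ADT (5 UMIs) and 8.57 CPM in Trp53-intact (5 UMIs). Of all Cxcr5 UMIs in kept cells, B-like cells held 73.7% in Trp53-deleted ADT, 86.7% in Trp53-deleted, 87.1% in Trp53-intact ADT and 76.0% in Trp53-intact.

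Cxcr4 was higher with ADT in B-like cells of both genotypes by less than 2-fold, at 589 CPM in Trp53-deleted ADT against 429 CPM in Trp53-deleted, and 600 CPM in Trp53-intact ADT against 380 CPM in Trp53-intact. T-like cells had 274 CPM in Trp53-deleted ADT, 218 CPM in Trp53-deleted, 246 CPM in Trp53-intact ADT and 280 CPM in Trp53-intact. Macrophage-like cells had 174 CPM in Trp53-deleted ADT, 89.2 CPM in Trp53-deleted, 179 CPM in Trp53-intact ADT and 154 CPM in Trp53-intact, which is 1.95-fold higher with ADT in the deleted genotype. They held 60.4% of the Cxcr4 UMIs in Trp53-deleted ADT and 33.0% in Trp53-intact, the largest share of any class there. A gap past 2-fold was seen in neutrophil-like cells, where CXCR4 marks aged cells and holds neutrophils in the marrow. They had 469 CPM in Trp53-deleted ADT (432 to 508) and 1087 CPM in Trp53-deleted (1042 to 1134), then 1090 CPM in Trp53-intact ADT and 884 CPM in Trp53-intact. The Trp53-deleted ADT library was 2.32-fold below Trp53-deleted and 2.33-fold below Trp53-intact ADT, and both neutrophil clusters (2 and 13) were lowest there. The 8 macrophage markers in neutrophil-like cells summed to 2129 CPM in Trp53-deleted ADT, 1108 CPM in Trp53-deleted, 704 CPM in Trp53-intact ADT and 1102 CPM in Trp53-intact. The 8 fibroblast markers summed there to 1541 CPM in Trp53-deleted ADT, 726 CPM in Trp53-deleted, 312 CPM in Trp53-intact ADT and 487 CPM in Trp53-intact. Both sums were highest in Trp53-deleted ADT, though not every fibroblast marker was. Dcn had 195 CPM in Trp53-deleted ADT against 479 CPM in Trp53-deleted, while Col1a2 had 408 CPM against 51.3 CPM. The part of these markers in the lower Cxcr4 of Trp53-deleted ADT was not tested.

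Ccr7, which admits naive lymphocytes and mature dendritic cells to lymphoid tissue, was highest in the lymphocytes of Trp53-intact ADT. In T-like cells it measured 120 CPM in Trp53-deleted ADT (109 to 131), 188 CPM in Trp53-deleted (169 to 208), 490 CPM in Trp53-intact ADT (471 to 511) and 88.5 CPM in Trp53-intact (76.1 to 102). Trp53-intact ADT was 5.54-fold above Trp53-intact (4.76 to 6.48), and Trp53-deleted ADT was 4.10-fold below Trp53-intact ADT. The 8 macrophage markers in T-like cells summed to 1371 CPM in Trp53-deleted ADT, 562 CPM in Trp53-deleted, 330.5 CPM in Trp53-intact ADT and 511 CPM in Trp53-intact. The 8 fibroblast markers summed there to 887 CPM in Trp53-deleted ADT, 480 CPM in Trp53-deleted, 159 CPM in Trp53-intact ADT and 325 CPM in Trp53-intact. Both sums were lowest in Trp53-intact ADT, where Ccr7 was highest, though Dcn had 110 CPM there against 99.4 CPM in Trp53-deleted ADT. The part of these markers in the Ccr7 level was not tested. B-like cells had 487 CPM in Trp53-deleted ADT, 341 CPM in Trp53-deleted, 1004 CPM in Trp53-intact ADT and 642 CPM in Trp53-intact.

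Among T-like clusters Ccr7 differed most in cluster 4 (Cd8b1, Lef1, Tcf7), which had 178 CPM in Trp53-deleted ADT, 275 CPM in Trp53-deleted, 688 CPM in Trp53-intact ADT and 112 CPM in Trp53-intact. That cluster made up 58.1% of T-like cells in Trp53-deleted ADT, 57.8% in Trp53-deleted, 66.2% in Trp53-intact ADT and 30.1% in Trp53-intact. In cluster 1 (Foxp3, Ctla4, Il2ra) Ccr7 was 62.4 CPM in Trp53-deleted ADT, 52.8 CPM in Trp53-deleted, 115 CPM in Trp53-intact ADT and 130 CPM in Trp53-intact. In dendritic-like cells its level was highest in cluster 19 (Ccl22, Fscn1, Il12b), where it was itself a leading gene. There it had 3129 CPM in Trp53-deleted ADT, 2267 CPM in Trp53-deleted, 3315 CPM in Trp53-intact ADT and 3366 CPM in Trp53-intact. Cluster 11 held most dendritic-like cells and had 80.1 CPM in Trp53-deleted ADT, 21.8 CPM in Trp53-deleted, 148 CPM in Trp53-intact ADT and 325 CPM in Trp53-intact. In Trp53-intact cluster 11 held 1953 Ccr7 UMIs, about as many as the 1963 of cluster 19.

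**Figure D3:**
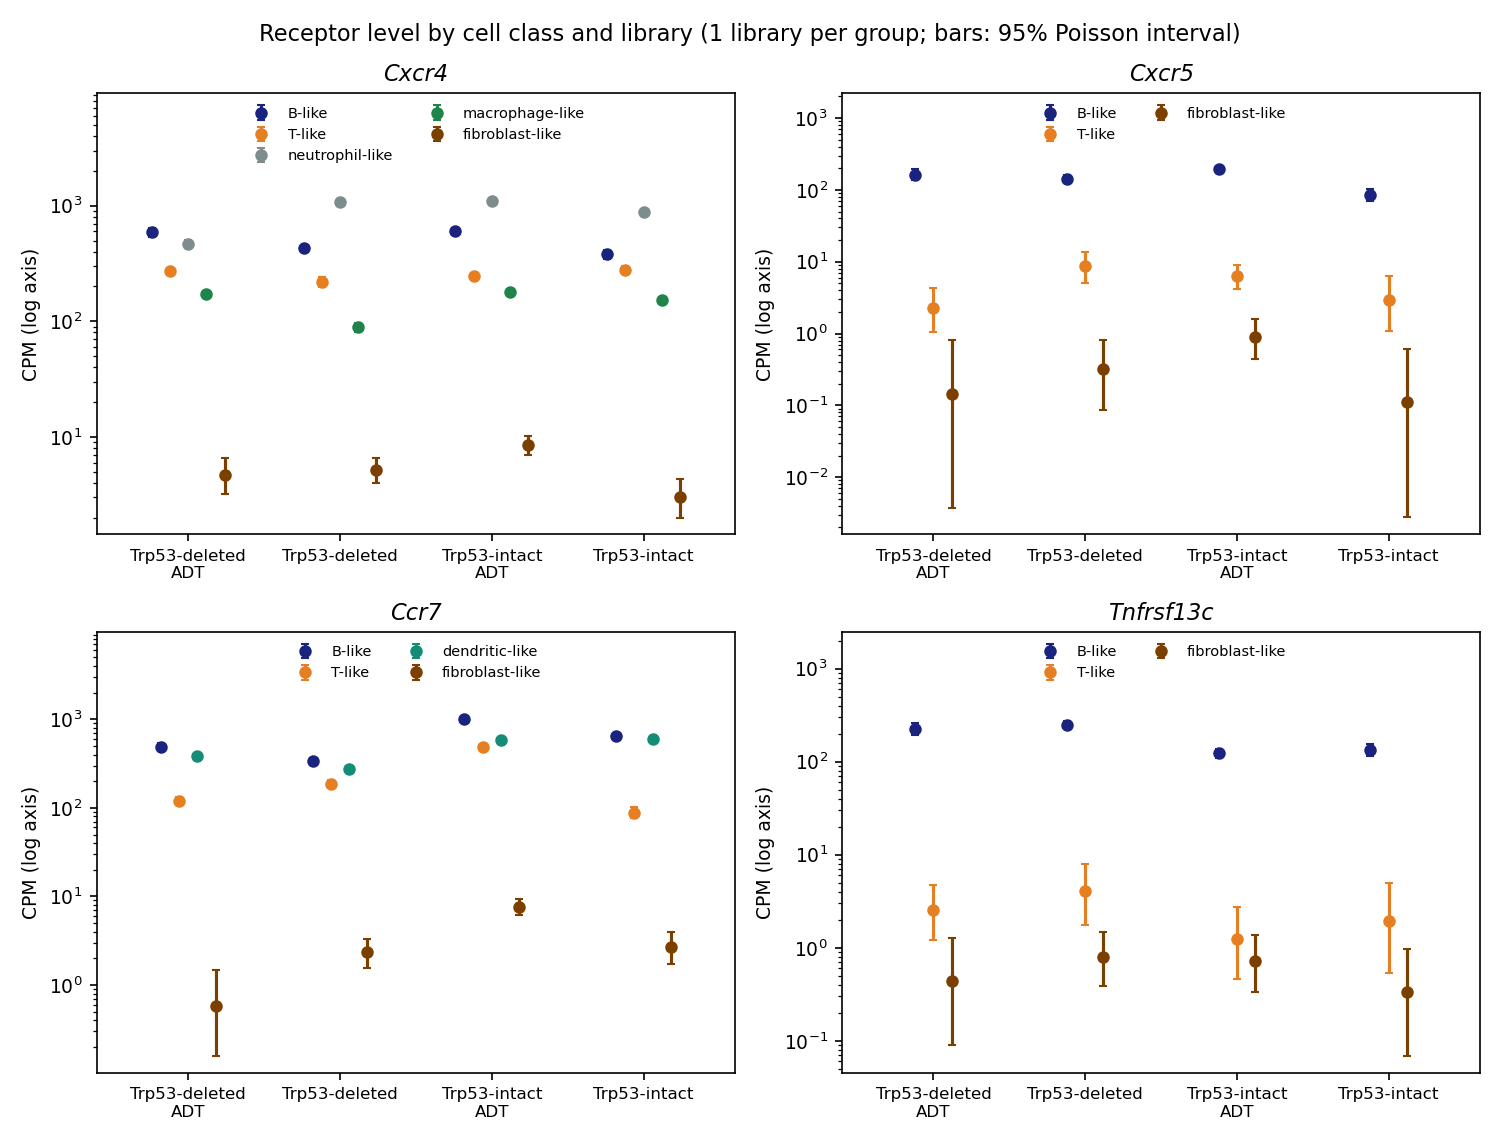
CPM of the 4 receptors on log axes in the leukocyte classes and fibroblast-like cells, with the libraries along the horizontal axis and 95% Poisson intervals as bars. Cxcr5 and Tnfrsf13c were higher in B-like than in T-like and fibroblast-like cells, while Cxcr4 and Ccr7 were also high in other leukocytes.

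All 4 receptors were detected together in 12.6% of B-like cells in Trp53-deleted ADT, 12.7% in Trp53-deleted, 13.9% in Trp53-intact ADT and 11.1% in Trp53-intact. B-like cells with none of the 4 made up 1.05% in Trp53-deleted ADT, 4.84% in Trp53-deleted, 0.867% in Trp53-intact ADT and 1.92% in Trp53-intact. Their class's median depths were 3851 UMIs in Trp53-deleted ADT, 4030 UMIs in Trp53-deleted, 4283.5 UMIs in Trp53-intact ADT and 5544.5 UMIs in Trp53-intact.

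**Figure D4:**
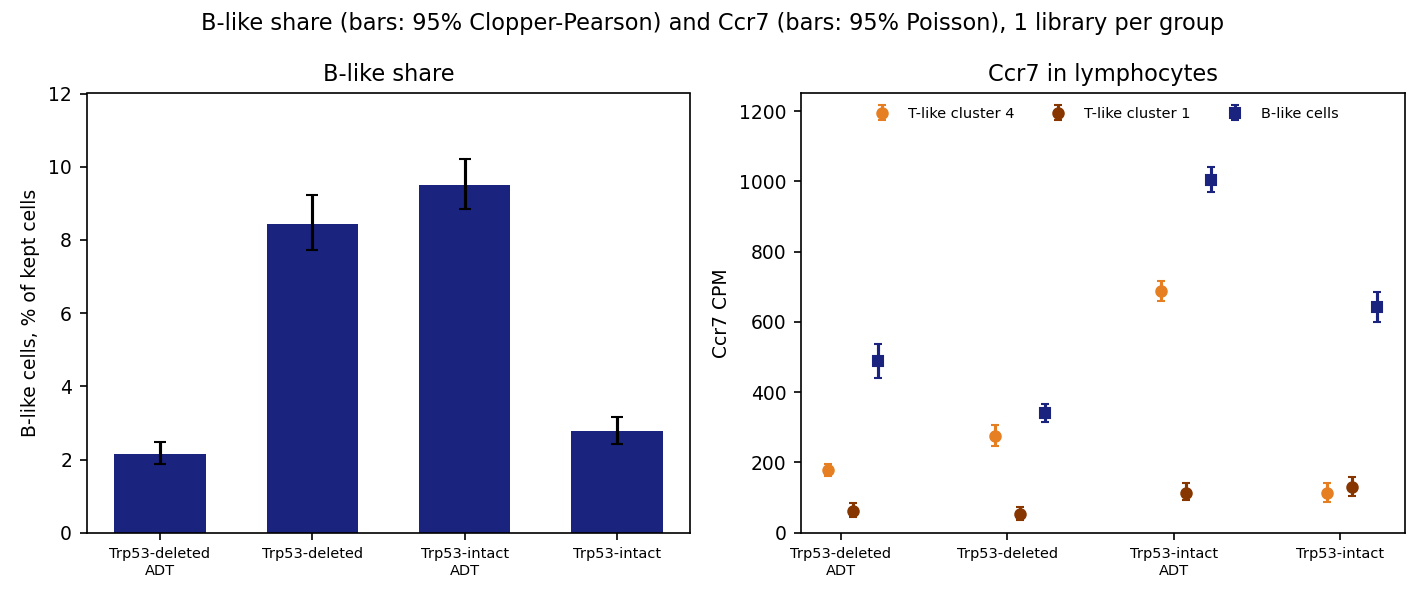
Left, B-like cells as a percent of kept cells with 95% Clopper-Pearson intervals; right, Ccr7 CPM in B-like cells and in T-like clusters 4 and 1 with 95% Poisson intervals. The B-like share was 2.16% and 9.51% in the ADT libraries of the deleted and intact genotypes, against 8.44% and 2.77% without ADT, and Ccr7 in cluster 4 was highest in Trp53-intact ADT.

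Over 21 pairs of a gene and a class, listed without the epithelial ones (of which 20 had at least 20 UMIs over both libraries of each comparison), 5 differed at least 2-fold with ADT in the deleted genotype, 1 higher and 4 lower, where 9.08% of all genes in the same 8 classes did so. In the intact genotype 4 pairs did, 2 higher and 2 lower, against 4.17% of all genes. Between the genotypes 6 pairs were lower in Trp53-deleted ADT than in Trp53-intact ADT and none was higher, against 6.34% of genes. Without ADT 1 pair was higher and 2 were lower in Trp53-deleted than in Trp53-intact, against 6.74%. The median log2 ratio of the pairs was -0.27 for ADT in the deleted genotype (all genes -0.10), 0.36 for ADT in the intact genotype (0.08), -0.50 between genotypes with ADT (0.01) and 0.29 without (0.19). The comparisons share libraries and are not independent of each other.

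Genes that act beside these axes, a list of 50 receptors, decoys, adhesion molecules and survival genes, were counted in the classes that send and receive the signals. In fibroblast-like cells 2 of 38 measured genes were at least 2-fold higher and 2 lower with ADT in the deleted genotype, where 5.9% of all genes passed that size, and 1 of 36 was higher and 2 lower in the intact genotype (3.35% of all genes). Between genotypes 1 of 37 was higher and 2 lower with ADT (4.02% of all genes), and 1 of 36 was higher and 1 lower without (3.38%). The median log2 ratio of the list with ADT was 0.17 in the deleted genotype (all genes -0.06) and 0.33 in the intact one (0.06). Ackr3, the scavenging receptor that removes CXCL12, had 51.2 CPM in Trp53-deleted ADT against 184 CPM in Trp53-deleted. The CXCR3 ligand Cxcl10 had 293 CPM in Trp53-deleted ADT against 142 CPM in Trp53-deleted, but 92.7 CPM in Trp53-intact ADT against 240 CPM in Trp53-intact. Dpp4, a peptidase that inactivates CXCL12, had 16.3 CPM in Trp53-deleted ADT against 51.4 CPM in Trp53-deleted, and 33.8 CPM in Trp53-intact ADT against 13.4 CPM in Trp53-intact.

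In B-like cells 1 of 29 measured genes of that list was higher and 6 were lower with ADT in the deleted genotype, where 8.43% of all genes passed, and 1 of 31 was higher and 1 lower in the intact genotype (5.27%). With ADT 2 of 32 were higher and 6 lower in the deleted than in the intact genotype (5.74%), and without ADT 3 of 30 were higher and 3 lower (7.07%). The list's median log2 ratio with ADT was -0.44 in the deleted genotype (all genes -0.08) and 0.09 in the intact one (0.19). Tnfrsf13b, the other BAFF-binding receptor TACI, had 54.2 CPM in Trp53-deleted ADT against 172 CPM in Trp53-deleted, and the survival gene Bcl2 had 97.0 CPM in Trp53-deleted ADT against 216 CPM in Trp53-deleted. Klf2, which holds lymphocytes in a recirculating state, had 511 CPM in Trp53-deleted ADT against 1132 CPM in Trp53-intact ADT, and 292 CPM in Trp53-deleted against 1205 CPM in Trp53-intact. The oxysterol receptor Gpr183, which positions B cells in follicles, had 127 CPM in Trp53-deleted ADT against 399 CPM in Trp53-intact ADT, and 138.5 CPM in Trp53-deleted against 383 CPM in Trp53-intact. The genes named here for B-like cells were all among the lower ones, and those counted as higher are not named.

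In T-like cells 3 of 37 measured list genes were higher and 4 lower with ADT in the deleted genotype (6.06% of all genes passed), and 2 of 35 were higher and 3 lower in the intact genotype (4.65%). Between genotypes 3 of 37 were higher and 3 lower with ADT (4.32%), and 3 of 34 were higher and 2 lower without (8.04%). Here the median log2 ratio with ADT was -0.16 in the deleted genotype (all genes -0.14) and -0.27 in the intact one (-0.03). S1pr1, the exit receptor of recirculating T cells, had 422 CPM in Trp53-intact ADT against 140 CPM in Trp53-intact. Cxcr6, a receptor of tissue-resident T cells, had 202 CPM in Trp53-intact ADT against 507 CPM in Trp53-intact. It was a leading gene of T-like cluster 18 (Trdc, Il17a). That cluster made up 16.8% of T-like cells in Trp53-intact ADT against 31.3% in Trp53-intact, while cluster 4 made up 66.2% against 30.1%. The part of this make-up in the S1pr1 and Cxcr6 levels was not tested.

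The genes whose levels were most alike to each of the 8, by Pearson's r of log2 CPM over 54 profiles of a class in a library, are given as a description, since profiles of 1 library share its depth and its cells. For Cxcl13 they were Scara5 (r = 0.75), Aox3 (0.72) and Sult1e1 (0.70), of which Scara5 and Sult1e1 are among the leading genes of cluster 21. For Cxcl12 they were Plpp3 (0.89), Ebf3 (0.87) and Enpp2 (0.86), for Tnfsf13b the chemokine genes Ccl7 (0.78) and Ccl2 (0.78), and for Cxcr5 the B-cell gene Fcrl1 (0.88) was among the closest. For Cxcr4 they included the leukocyte genes Cd53 (0.95) and Ptprc (0.94), for Ccr7 H2-Oa (0.87) and Btla (0.86), for Tnfrsf13c Bfsp2 (0.88), and for the scarce Ccl19 D630033O11Rik (0.93).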

How the data were processed

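Single-cell RNA libraries of dissociated mouse prostate were made with a 10x Chromium 3' kit (version 3) per the labels' protocols. The deposited values are UMI counts per gene and barcode on mm10, made by the authors with Cell Ranger, 2.1.1 per the submitters' processing notes and 3.1.0 per the file headers. A further element of the genotype, shared by all groups, and values of some listed genes are not reported here.

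Barcodes with at least 500 UMIs, 200 genes and at most 20% mitochondrial UMIs were kept. Scrublet's automatic threshold marked 0 or 1 barcode per library, so the highest-scoring barcodes (0.008 of a library per 1000 barcodes) were left out as doublets, 305 to 793 per library. Cells were clustered with scanpy 1.11.5 (2000 variable genes without the 8 genes, 40 components, 20 neighbours, Leiden resolution 1) and 19 classes were named from marker lists. The naming thresholds, and leaving a neuron-gene-led cluster unnamed, were set after the clusters were seen. Rebuilt names may differ from the study's.

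Levels (CPM) are the UMIs of a gene in all cells of a class from 1 library, relative to the total of those cells, with exact Poisson intervals. Ratios had conditional binomial intervals and shares Clopper-Pearson intervals, from scipy 1.17.1. Log2 ratios used a pseudocount of 5 CPM, a pair needed 20 UMIs in the compared libraries together to count as measured, and 2-fold was the size used for counts, since 1 library per group allows no test. The ratios were tested on simulated data, with no result of that test reported here. Scaling by edgeR 4.0.16 TMM factors was an alternative. Named genes were the 8 genes, their listed classes, and from the pathway list at most 4 with the largest ratios each way. The most alike genes were the 3 with the highest r. Members and lists were chosen with earlier results of these data known. Gene positions are from GENCODE M21, and promoters of 6 of the 8 genes were found in RefSeq.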

Additional observations from a re-analysis of the deposited data

Results flagged for a closer look

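For 7 results the ADT difference had opposite directions in the 2 genotypes, and for the 6 gene and class pairs among them the counting intervals of both ratios left out 1. Pairs such as Cxcr5 in T-like cells and Tnfsf13b in dendritic-like cells also had opposite directions, but at least 1 of their intervals held 1. The difference between the genotypes was not tested, since each group has 1 library. It is given as the ADT log2 ratio in the deleted genotype minus that in the intact one. For Cxcl12 it was -0.96 in fibroblast-like cells and -2.01 in smooth muscle or pericyte-like cells, a class of 31 to 123 cells per library. For Tnfsf13b in macrophage-like cells it was -1.33. For Cxcr4 it was 0.51 in T-like cells and -1.51 in neutrophil-like cells. The largest was Ccr7 in T-like cells at -3.03. For the B-like share the difference was -13.0 percentage points.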

How the results depend on the processing

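No paired analysis was possible because each group has 1 library, and for the same reason no replicate could be left out. Over the 4 comparisons there were 18 differences of at least 2-fold, where the same pair can count in more than 1 comparison. Recomputed under 15 alternatives they gave 270 values, of which 252 stayed at least 2-fold apart in the same direction. Only 1 took the other direction, Ccl19 in fibroblast-like cells with ADT in the deleted genotype. It had a log2 ratio of -0.77 with classes drawn from marker UMIs per cell. Without the 1 cell richest in it that Ccl19 ratio was 0.13. Over all 1187 pair values, 1032 stayed close to the reported value and 154 moved. With marker-UMI classes 7 pairs passed 2-fold for ADT in the intact genotype (4 as reported) and 7 between genotypes without ADT (3 as reported). With clusters of a class weighted equally, an alternative chosen after seeing the data, 1 pair passed between genotypes without ADT. Ccr7 in dendritic-like cells between genotypes without ADT had a log2 ratio of -1.10 as reported, -0.38 at Leiden resolution 2, -0.36 with at least 1000 UMIs per cell and -0.69 with clusters weighted equally. Ccr7 in T-like cells without ADT went below 2-fold at a log2 ratio of 0.42 with clusters weighted equally and 0.81 with TMM factors. TMM factors moved the median of all genes between genotypes without ADT by -0.18 (fibroblast-like) to -0.49 (smooth muscle or pericyte-like) log2 in the 8 classes. The cause was not tested.

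The B-like share kept its 4 directions under all 9 alternatives. As a share of immune-like cells its differences were -11.6 points for ADT in the deleted genotype, 14.5 for ADT in the intact one, -16.1 between genotypes with ADT and 9.95 without, where the denominator is smaller by construction. Outside unnamed clusters they were 9.31 for ADT in the intact genotype and -9.08 between genotypes with ADT, and with at least 1000 UMIs per cell 7.95 and -8.75. With marker-UMI classes they were -4.71 for ADT in the deleted genotype and 3.12 between genotypes without ADT. Depth limits Ccl19 most, with 94 to 170 UMIs in kept cells per library.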
